A study of Homo sapiens with 6 samples.

Results

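GATA2, GATA1, TAL1, LYL1, LMO2, ERG, FLI1 and SPI1, 8 genes for core transcription factors of blood stem and progenitor cells, were followed in a human leukaemia line given a peptide against a corepressor contact. They were chosen by name, and all 8 were among the 27744 genes of the deposited tables. All 8 also passed the expression filter that left 14634 genes for testing. Each factor gene is given below with its level in every library, with the difference between the constructs, and with the RefSeq transcripts that carried its reads.

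The RNA came from MUTZ3, an established human acute myelomonocytic leukaemia line with an inversion of chromosome 3 that brings an enhancer of GATA2 to MECOM, the gene of EVI1. Per the labels, cells were transduced with a retrovirus, carry the time point 72 h, and were grown in αMEM with fetal calf serum and medium conditioned by a bladder carcinoma line. The PLDLS group (2 libraries) carried p50MX-3xFLAG-3xNLS-4xPLDLS-Zeo, whose peptide is labelled as an inhibitor of EVI1 binding to CTBP, a corepressor. The PLASS group (2 libraries) carried p50MX-3xFLAG-3xNLS-4xPLASS-Zeo, the same backbone with a peptide labelled as lacking that activity. The empty vector group (EV, 2 libraries) was not uniform, since EV replicate 1 carried p50MX-3xFLAG and EV replicate 2 carried p50MX-Zeo. All libraries came from 1 cell line, and no label says that replicates were separate cultures. The spread behind each p-value is that of these libraries and could be technical.

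Several of the 8 proteins act together on DNA. TAL1 and its paralogue LYL1 are basic helix-loop-helix proteins that pair with E proteins at E-box motifs, and LMO2 is a bridging protein that binds no DNA itself and joins them through LDB1 to a GATA factor. GATA2 serves in stem and progenitor cells and in the mast cell lineage, and GATA1 takes its place at many sites as erythroid and megakaryocytic cells mature. ERG and FLI1 are ETS factors of stem cells, endothelium and megakaryocytes, and SPI1 encodes PU.1, an ETS factor of myeloid and B cells that antagonises GATA1. In leukaemias with the chromosome 3 inversion, 1 copy of GATA2 loses its distal enhancer.

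The libraries held 5582078 to 35800826 estimated reads, and the library numbered 2 was the shallower one in each group. Same-numbered libraries deviated together (r = 0.533 to 0.683 across 10581 genes), although no label says what a number marks, so fits with the number as a block are given beside the fits without it. CD34, the progenitor surface marker, was at 605 to 894 CPM (counts per 1000000 reads, TMM-scaled). None of 5 erythroid markers reached 1 CPM, and HBA1 and HBB were at 0 in all 6 libraries. The summed level of 6 monocyte markers was 113 and 183 CPM in the PLDLS libraries and 69.6 to 103 CPM in the other 4, with S100A8 and S100A9 as the markers that differed. The sum of 4 Langerhans and dendritic cell markers was 30 and 28.8 CPM with PLDLS and 13.7 to 20.4 CPM in the other 4. That rise lay in CD207 alone, at 20.2 and 20 against 2.24 to 3.99 CPM. CD1A was at 3.36 and 5.2 CPM with PLDLS against 4.98 to 9.01, and CD1C at 6.35 and 3.53 against 4.95 to 10. FCER1A was at most 0.406 CPM. The part of either marker set in the results below was not tested. In these bulk libraries, fewer cells of a type and less RNA per cell cannot be told apart.

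Per length, on the deposited TPM scale (transcript share per 1000000, corrected for length), the 8 levels spanned from 4.44 for GATA1 to 204 for SPI1 as means of the 6 libraries. SPI1 was followed by TAL1 at a mean of 176 TPM, LYL1 and GATA2 at 120 TPM each, FLI1 at 93.8, LMO2 at 46.3 and ERG at 26.7 TPM. SPI1 was higher than 95.1% of the tested genes by mean TPM, GATA2 than 90.4% and GATA1 than 24.9%. Neighbours in this order overlapped in their ranges over the 6 libraries, except FLI1 (65.8 to 132 TPM) above LMO2 (25.4 to 63 TPM), and ERG (18.3 to 38 TPM) above GATA1 (3.27 to 5.88 TPM). The myeloid factor SPI1 and the stem cell factor TAL1 thus headed the group by mean, and the erythroid factor GATA1 was last in all 6 libraries.

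**Figure D1:**
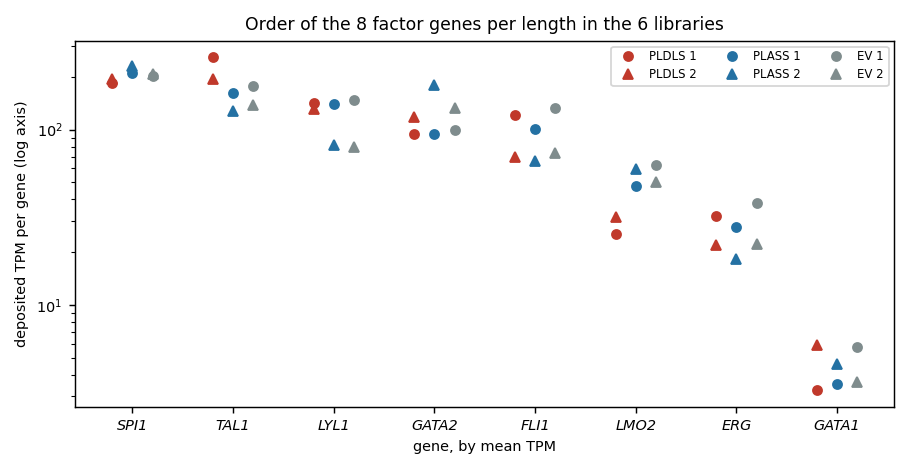
Deposited TPM of the 8 factor genes (log axis), ordered by the mean of the 6 libraries, with 1 marker per library (colour for the construct, circle for replicate 1, triangle for replicate 2). SPI1 spans 184 to 231 TPM at the left and GATA1 3.27 to 5.88 TPM at the right, with no overlap between ERG and GATA1.

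GATA2 lies on the minus strand of GRCh38.p14 chromosome 3 from 128479422 to 128493201. Its level was 135 and 187 CPM in PLDLS replicates 1 and 2, 137 and 274 CPM in PLASS, and 132 and 213 CPM in EV. The 3 libraries numbered 1 lay close together, the 3 libraries numbered 2 were all higher, and the construct groups overlapped. PLDLS against PLASS gave a log2 difference of -0.35 ± 0.37 (SE) without the block and -0.29 ± 0.15 with it (edgeR adjusted p = 1 and 0.555). With the block the interval of 2 SE on either side ran from -0.59 to 0.01. Against EV the blocked difference was -0.07 ± 0.15 (adjusted p = 0.881).

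MECOM, which the inversion places beside the GATA2 enhancer, was at 605 and 519 CPM with PLDLS, 531 and 342 with PLASS and 129 and 88.2 with EV. Its 2 EV libraries were the lowest, a split that the GATA2 values did not share. The antisense gene GATA2-AS1 was at 23.7 to 26.8 CPM in the 3 libraries numbered 1 and at 28.3 to 29.4 CPM in the 3 numbered 2, so it split by number in the same direction as GATA2. Reads from the stretch it shares with GATA2 could not be assigned to a strand.

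The GATA2 reads fell on 3 RefSeq transcripts. NM_032638, from the upstream start, was at 25.8 and 24.7 TPM with PLDLS, 27.1 and 32.5 with PLASS and 23.7 and 27.2 with EV. The 2 transcripts of the downstream starts, NM_001145661 and NM_001145662, summed to 68.8 and 93.1, 67.8 and 147, and 75.1 and 104 TPM in the same order. The downstream starts thus held 71.5% to 81.9% of the GATA2 TPM, and the higher level in the libraries numbered 2 lay there, while the upstream start stayed within 23.7 to 32.5 TPM. Such splits are Salmon estimates with no error in the files and were not tested.

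The promoter windows at the upstream start and at the start of NM_001145661 are shown because the GATA2 levels that varied lay on the downstream side. No window covered the start of NM_001145662, which was not searched. The windows come from the RefSeq table (GRCh38.p14) and run from 250 bases before to 50 bases after a start, with windows matched for 5 of the 8 genes. Each was searched on both strands for the GATA motif, written as AGATAA or AGATAG or TGATAA or TGATAG. The ETS motif was written as AGGAAG or as CGGAAG, and the E-box of the TAL1 kind as CAGCTG or as CAGATG. In this order the motifs were found in 25%, 46.9% and 29.8% of 35116 such windows. Capitals mark matches. The window at the upstream start (chr3:128493152-128493451, minus strand) holds 1 ETS match at position 24 after the start. The window at the start of NM_001145661 (chr3:128488481-128488780, minus strand) holds 1 E-box at position -131. Neither window holds a GATA match.
GATA2 upstream: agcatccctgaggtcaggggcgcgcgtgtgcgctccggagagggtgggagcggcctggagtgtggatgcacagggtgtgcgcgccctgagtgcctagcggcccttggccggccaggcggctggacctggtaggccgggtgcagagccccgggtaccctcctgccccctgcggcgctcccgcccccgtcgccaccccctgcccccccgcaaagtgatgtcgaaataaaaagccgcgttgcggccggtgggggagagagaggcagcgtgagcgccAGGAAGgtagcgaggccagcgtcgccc
GATA2 downstream: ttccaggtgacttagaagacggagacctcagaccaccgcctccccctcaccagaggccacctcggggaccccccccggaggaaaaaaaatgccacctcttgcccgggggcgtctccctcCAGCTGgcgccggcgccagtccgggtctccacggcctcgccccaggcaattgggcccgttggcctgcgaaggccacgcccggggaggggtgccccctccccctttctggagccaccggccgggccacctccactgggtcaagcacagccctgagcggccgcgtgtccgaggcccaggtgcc

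GATA1, the erythroid and megakaryocytic factor on chromosome X (48786590 to 48794311, plus strand), was near the floor of the measurement. Its level was 1.8 and 3.71 CPM with PLDLS, 1.97 and 2.68 with PLASS and 2.92 and 2.27 with EV, from 20 to 111 reads per library. All 3 groups overlapped. The blocked log2 difference of PLDLS against PLASS was 0.12 ± 0.39 (edgeR adjusted p = 0.97), with 2 SE on either side reaching from -0.66 to 0.90. Within a library GATA2 exceeded GATA1 by 17.3-fold to 39.1-fold in TPM, with the lowest ratio in EV replicate 1 and the highest in PLASS replicate 2.

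TAL1 (chromosome 1, 47216290 to 47232335, minus strand) was higher in both PLDLS libraries than in all 4 others. It was at 488 and 388 CPM with PLDLS, 312 and 252 with PLASS and 306 and 297 with EV. Against PLASS the log2 difference was 0.64 ± 0.20 (SE) without the block and 0.64 ± 0.13 with it, a 1.55-fold higher level, and it was 0.64 within replicate 1 and 0.62 within replicate 2. Neither fit passed the threshold of 0.05 (edgeR adjusted p = 0.678, and 0.0548 with the block). Over 15 settings with the block the adjusted p ran from 0.00109 to 0.495, and 6 of them called TAL1. Against EV the blocked difference was 0.53 ± 0.13 (adjusted p = 0.0696, range 0.0189 to 0.364, called in 3 of 15 settings).

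The 6 TAL1 transcripts did not share this difference evenly. NM_001287347 and NM_001290404, the 2 paired with the upstream GENCODE start, summed to 185 and 110 TPM with PLDLS, 100 and 58.5 with PLASS and 87.3 and 60.1 with EV. The other 4 transcripts summed to 73 and 83.5, 62.1 and 68.5, and 89 and 78.3 TPM. On the TPM scale, both PLDLS libraries were thus above the other 4 for the upstream pair. For the other transcripts they were above both PLASS libraries and overlapped those of EV. These transcripts share most of their exons, so the split rests on few distinguishing reads and was not tested.

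The 2 TAL1 windows of the RefSeq table are shown because the upstream pair held most of the difference in level. The GENCODE start paired with both transcripts of that pair lies in the second window, and none of the placed TAL1 transcripts starts in the first. The first lies at the start of the gene in that table (chr1:47232286-47232585, minus strand) and holds a GATA match, read as TTATCT, at position -35. The second (chr1:47231666-47231965, minus strand) surrounds the start of NM_001287347 and holds a pair of ETS matches, read as CTTCCT, at positions -238 and -234, which overlap each other. No E-box of the 2 searched forms is in either window.
TAL1 gene start: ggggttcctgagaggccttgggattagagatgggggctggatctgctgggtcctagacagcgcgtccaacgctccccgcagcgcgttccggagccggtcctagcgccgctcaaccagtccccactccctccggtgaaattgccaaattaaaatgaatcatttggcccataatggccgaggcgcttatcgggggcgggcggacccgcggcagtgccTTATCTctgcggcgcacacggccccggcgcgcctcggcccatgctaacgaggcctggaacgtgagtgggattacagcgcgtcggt
TAL1 start of NM_001287347: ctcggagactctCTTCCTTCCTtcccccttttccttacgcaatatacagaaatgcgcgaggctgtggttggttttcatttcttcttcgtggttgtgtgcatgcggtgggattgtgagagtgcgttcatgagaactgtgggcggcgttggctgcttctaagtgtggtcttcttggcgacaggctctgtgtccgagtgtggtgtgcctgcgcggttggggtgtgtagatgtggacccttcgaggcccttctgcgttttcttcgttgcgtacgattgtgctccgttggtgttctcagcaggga

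LYL1 (chromosome 19, 13099033 to 13102858, minus strand), the TAL1 paralogue, was at 102 and 112 CPM with PLDLS, 99.2 and 64 with PLASS and 103 and 64.4 with EV. The PLDLS libraries were both above the PLASS libraries, and EV replicate 1 lay between the 2 PLDLS values. The difference lay in the libraries numbered 2, at 0.81 on the log2 scale against PLASS, and was 0.04 within replicate 1. The blocked log2 difference was 0.43 ± 0.20 against PLASS and 0.39 ± 0.20 against EV (edgeR adjusted p = 0.472 and 0.389), not past the threshold in any of 15 settings.

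LMO2 (chromosome 11, 33858576 to 33892076, minus strand), the bridge of the complex, was the 1 factor gene that the blocked edgeR fit called between constructs, and only against EV. Its level was 17 and 23.9 CPM with PLDLS, 32.6 and 41.6 with PLASS and 39.1 and 37.2 with EV. Both PLDLS libraries were below all 4 others. With the block LMO2 fell against EV by 0.94 ± 0.18 on the log2 scale, a 1.92-fold lower level (edgeR adjusted p = 0.0251), and 14 of 15 settings with the block called it (0.00123 to 0.232). Without PLDLS replicate 1 the call was lost (adjusted p = 0.232), and without the block it was not made (log2 -0.91 ± 0.25, adjusted p = 0.3).

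Against PLASS, the closer control, the blocked LMO2 difference was -0.88 ± 0.18, a 1.84-fold lower level, with an edgeR adjusted p of 0.0528. That p ran from 0.000691 to 0.372 over 15 settings with the block, of which 7 called LMO2, and it was 0.543 without the block. The log2 difference was -0.94 within replicate 1 and -0.80 within replicate 2. PLASS and EV differed by -0.06 ± 0.17 with the block, with replicate 1 and replicate 2 on opposite sides (-0.26 and 0.16). Both comparisons of PLDLS share its libraries and are not independent.

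Of the LMO2 transcripts, the 2 from the proximal start held 71.8% to 91.7% of the TPM. They summed to 21.7 and 23 TPM with PLDLS, 37.9 and 52.4 with PLASS and 54.1 and 46.1 with EV. The distal transcript NM_005574 was at 3.78 to 9.76 TPM, with the PLDLS libraries at 3.78 and 9. At the proximal start PLDLS was thus below both other groups without overlap. At the distal start the groups overlapped, and the replicate numbers went opposite ways. PLDLS, PLASS and EV were at 3.78, 9.76 and 8.82 TPM in replicate 1 and at 9, 7.05 and 4.15 TPM in replicate 2. The PLDLS values there rest on 52.5 and 43.1 estimated reads, and a difference between the starts was not tested. The ratio of TAL1 to LMO2 in TPM, chosen after the values were seen, was 10.1 and 6.04 with PLDLS, 3.41 and 2.14 with PLASS and 2.8 and 2.76 with EV.

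**Figure D2:**
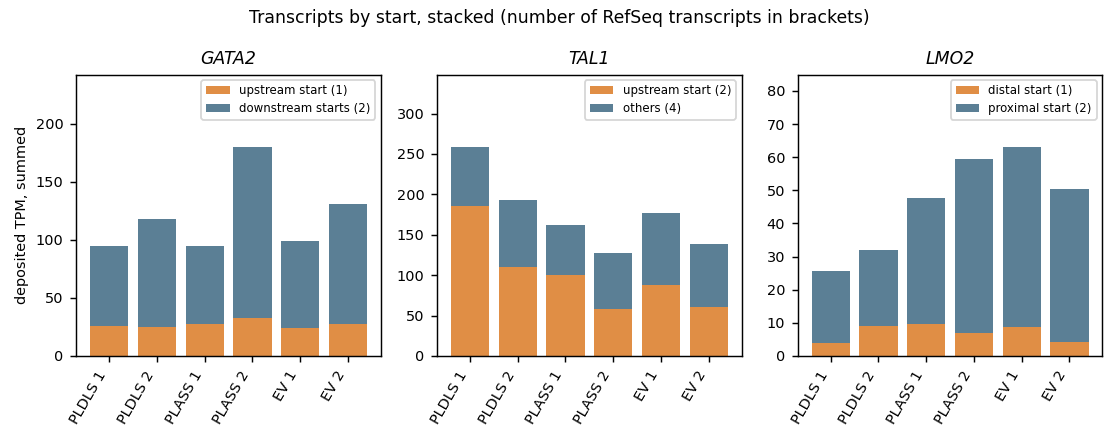
Deposited TPM of GATA2, TAL1 and LMO2 in each library (horizontal axis), stacked by transcript start, with the number of RefSeq transcripts in brackets. The upstream TAL1 pair stands at 185 and 110 TPM with PLDLS and at most 100 elsewhere, the proximal LMO2 start at 21.7 and 23 TPM with PLDLS and at least 37.9 elsewhere.

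ERG (chromosome 21, 38367261 to 38661783, minus strand) was at 51.6 and 33.4 CPM with PLDLS, 45.5 and 28.9 with PLASS and 51.7 and 40.9 with EV. FLI1, its close relative (chromosome 11, 128685132 to 128813267, plus strand), was at 179 and 103, 153 and 99.6, and 175 and 122 CPM. In both genes the constructs overlapped, and the library numbered 1 was the higher one in each group. The blocked log2 differences of PLDLS against PLASS were 0.20 ± 0.15 for ERG and 0.14 ± 0.13 for FLI1 (edgeR adjusted p = 0.769 and 0.82). The 2 genes kept a narrow ratio, with FLI1 at 3.16 to 3.76 times the TPM of ERG in all 6 libraries.

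One ERG transcript, NM_182918, was listed at 0 TPM in the 3 libraries numbered 2 and at 3.84 to 4.96 TPM in the 3 numbered 1. Its GENCODE start (38498483) lies near that of NM_001331025 (38498442), and ERG held 180, 356 and 741 reads in the libraries numbered 2. The split is a Salmon estimate with no error in the files and was not tested. NM_001331025 held the largest share of ERG in every library (40.6% to 53.8% of its TPM), and NM_002017 held 89.8% to 100% of FLI1. SENCR, a long noncoding RNA gene that overlaps FLI1, was at 1.46 to 3.56 CPM, so that any reads it shares with FLI1 are few beside those of FLI1.

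SPI1 (chromosome 11, 47354860 to 47378547, minus strand) varied least. It was at 101 and 124 CPM with PLDLS, 117 and 138 with PLASS and 105 and 129 with EV, and on the TPM scale its highest library was 1.26 times its lowest. The constructs overlapped, and replicate 2 was higher in each group. Its blocked log2 difference of PLDLS against PLASS was -0.18 ± 0.12 (edgeR adjusted p = 0.694), with 2 SE on either side from -0.42 to 0.06. SPI1 stood at 1.29 to 2.22 times the TPM of GATA2 within a library, lowest in PLASS replicate 2.

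**Figure D3:**
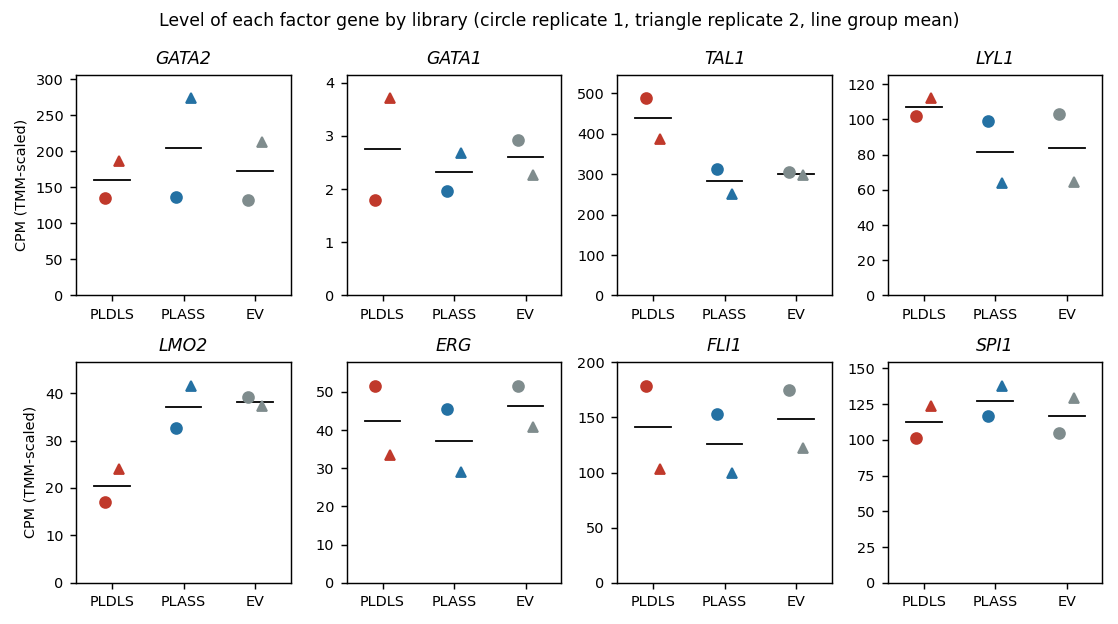
TMM-scaled CPM of the 8 factor genes (vertical axes from 0) by construct, with circles for replicate 1, triangles for replicate 2 and a line at the group mean of 2 libraries. TAL1 is higher and LMO2 lower in both PLDLS libraries than in the other 4, and GATA2, ERG, FLI1 and SPI1 split by replicate number.

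Counted over the 8 genes, edgeR without the block called 0 in each of the 3 comparisons of constructs. Of all 14634 genes it called 0% in PLDLS vs PLASS, 0.0137% in PLDLS vs EV and 0% in PLASS vs EV, while 722, 1047 and 103 genes had an unadjusted p under 0.05. Of the 8, TAL1 and LMO2 had an unadjusted p under 0.05 in both comparisons of PLDLS, and none did in PLASS vs EV. DESeq2 without the block called 121, 267 and 3 genes and limma-voom 0, 5 and 0, with none of the 8 among them.

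With the block, edgeR called 0 of the 8 in PLDLS vs PLASS, where 2.03% of all genes were called (1.52% higher and 0.513% lower). It called LMO2 alone in PLDLS vs EV, where 4.22% of all genes were called, 3.23% higher and 0.998% lower. In PLASS vs EV it called 0 of the 8 and 0.0137% of all genes, with 488 genes but none of the 8 at an unadjusted p under 0.05. DESeq2 with the block called LMO2 and TAL1 in both comparisons of PLDLS. The median log2 difference of the 8 in PLDLS vs PLASS was 0.13, beside -0.01 for all genes. A count of 1 among 8 is too small to read against these shares.

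Both PLDLS libraries lay above all 4 others in 9.98% of the tested genes, as for TAL1, and below all 4 in 8.04%, as for LMO2. The groups PLDLS and PLASS did not overlap in 29.2% of genes (14.9% higher and 14.3% lower with PLDLS) and in 3 of the 8 (TAL1, LYL1 and LMO2). PLDLS and EV did not overlap in 29.9% of genes (16.4% higher and 13.4% lower) and in 2 of the 8, and PLASS and EV in 14.7% of genes and 0 of the 8.

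**Figure D4:**
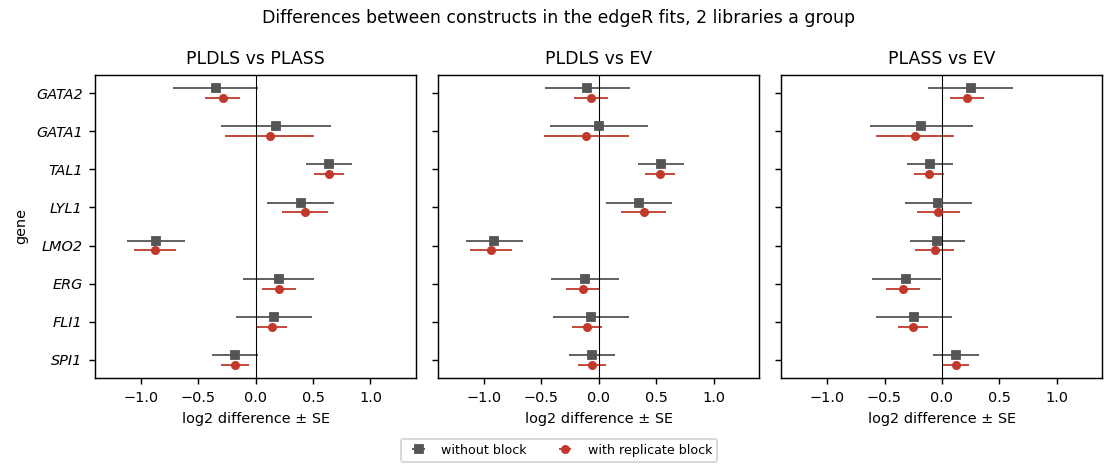
Log2 differences (horizontal axes, bars ± SE) of the 8 factor genes in 3 comparisons from edgeR fits without (grey squares) and with (red circles) the replicate block, 2 libraries a group. LMO2 lies at -0.88 and -0.94 with the block in the comparisons of PLDLS, TAL1 at 0.64 and 0.53, and in PLASS vs EV every blocked value lies between -0.34 and 0.22.

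Several of the factor genes differed between the replicate numbers. Replicate 2 against replicate 1, as a term beside the construct, called 3 of the 8 with edgeR, where 17.4% of all genes were called, 7.83% higher and 9.6% lower. GATA2 was higher in the libraries numbered 2 by 0.72 ± 0.12 on the log2 scale (adjusted p = 0.00898), at 187 to 274 CPM against 132 to 137 CPM. FLI1 was lower in them, at -0.64 ± 0.10 (adjusted p = 0.00778), and so was ERG, at -0.53 ± 0.13 (adjusted p = 0.0248). FLI1 was called in all 14 settings. The GATA2 call was lost without PLASS replicate 1 or PLASS replicate 2 (adjusted p = 0.06 and 0.0543). The ERG call was lost without any 1 of the PLASS or PLDLS libraries (0.166, 0.169, 0.0955 and 0.0958).

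SPI1 was at 0.27 ± 0.10 (edgeR adjusted p = 0.0823), LYL1 at -0.40 ± 0.16, TAL1 at -0.23 ± 0.11, LMO2 at 0.24 ± 0.15 and GATA1 at 0.27 ± 0.30 (adjusted p = 0.114 to 0.533). GATA2 and SPI1 were thus the genes whose 3 libraries numbered 2 all exceeded the 3 numbered 1, and ERG and FLI1 those with the opposite order. Such a separation of the numbers was seen in 39.3% of all tested genes, 18.3% higher and 21% lower. The number goes with depth, with the experiment number in the deposited table names, and in EV with the vector, so these cannot be told apart.

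**Figure D5:**
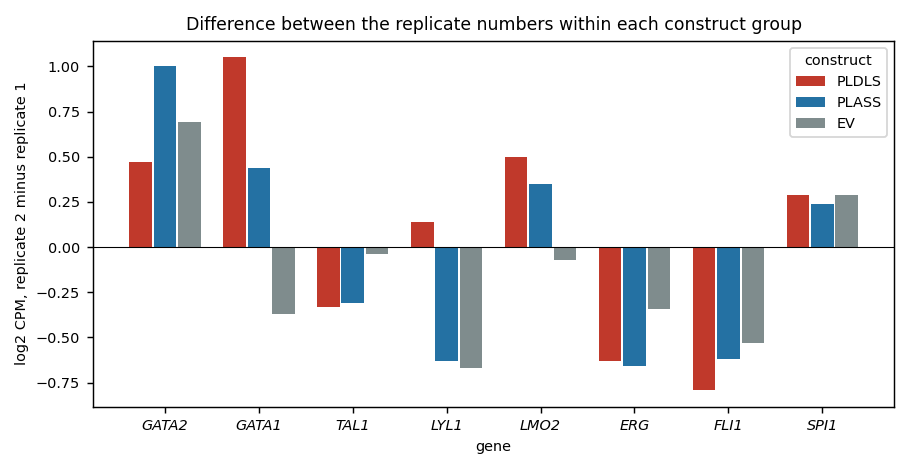
Difference in log2 CPM between replicate 2 and replicate 1 (vertical axis) for each factor gene within the 3 construct groups, 1 bar per group and so no error. GATA2 (0.47, 1.00 and 0.69) and SPI1 are above 0 in all groups, and ERG, FLI1 and TAL1 below 0.

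Over the 6 libraries, log2 CPM of TAL1 and LMO2 correlated at r = -0.98, ERG and FLI1 at 0.97, GATA2 and SPI1 at 0.92, and GATA2 with ERG and with FLI1 at -0.90. These are descriptions over 6 points that share construct, replicate number and depth. Of 12080 genes with a mean of at least 2 CPM, those most like GATA2 were SMIM13 (r = 0.998), BRD2 (0.994), ANKRD50 (0.993), STK38L (0.992) and CCDC43 (0.992). BRD2, a bromodomain protein gene, was at 419 and 456 CPM with PLDLS, 425 and 507 with PLASS and 411 and 478 with EV, so that it too was higher in the libraries numbered 2.

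The genes most like TAL1 were ZRSR2 (r = 0.998), a splicing factor gene, CDKN2A (0.994), a cell cycle inhibitor gene, and EPHA1 (0.988), an ephrin receptor gene. EPHA1 was at 30.1 and 19.9 CPM with PLDLS, 11.7 and 7.95 with PLASS and 10.9 and 9.12 with EV. Most like LMO2 were SAP130 (0.994), a SIN3 corepressor subunit gene, MMP15 (0.992) and STMN3 (0.992), and MMP15 was at 6.41 and 8.35, 10.9 and 14.9, and 13.2 and 13.4 CPM. The closest to FLI1 was DCLRE1C (0.996), to ERG NAPB (0.989), to SPI1 TUBA1C (0.995), to LYL1 PEAK3 (0.991) and to GATA1 H2AX (0.984).

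None of the 19 tested partners of the TAL1-LMO2 complex was called between constructs, with or without the block. LDB1, the dimerising protein that LMO2 binds, was at 90.1 and 87.4 CPM with PLDLS, 97.3 and 77.5 with PLASS and 111 and 77 with EV. The E protein gene TCF12 had the largest blocked log2 difference among the 4 named partners, at 0.25 ± 0.12 (edgeR adjusted p = 0.514), with TCF4 at -0.24 ± 0.16, CREBBP, an acetyltransferase gene, at -0.19 ± 0.13 and CBFA2T3, a corepressor gene of the complex, at -0.18 ± 0.13. With 2.03% of all genes called against PLASS and 4.22% against EV, a count of 0 among 19 says nothing particular of the partners. The list's median was -0.03, beside -0.01 for all genes.

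Of 14 tested relatives in the GATA, SCL, LMO and ETS families, 1 rose with PLDLS against PLASS in the blocked fit. Among all tested genes 1.52% did so, and a count of 1 is too small to read against that share. ETS1, an ETS factor gene of lymphoid cells and endothelium, was at 363 and 259 CPM with PLDLS, 180 and 135 with PLASS and 193 and 119 with EV. Both PLDLS libraries exceeded all 4 others, by 0.97 ± 0.13 on the log2 scale against PLASS and 1.01 ± 0.13 against EV (edgeR adjusted p = 0.0109 and 0.00489, and 0.59 and 0.345 without the block). ELK3, another ETS gene, rose against EV (0.86 ± 0.15, adjusted p = 0.0175, and 0.221 without the block) and was at 0.38 ± 0.15 against PLASS. ELF1 was at 0.22 ± 0.15, and TAL2 was at 0 to 1.46 CPM, neither past the threshold.

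Among 19 tested stem and progenitor factors outside the 8, the blocked fit called 3 higher and 2 lower with PLDLS against PLASS, and none was called without the block. Of all genes, that blocked fit called 1.52% higher and 0.513% lower. HOXA9, a homeobox gene of progenitors and leukaemia, rose by 0.73 ± 0.14 on the log2 scale (edgeR adjusted p = 0.0393), and was at 159 and 74 CPM with PLDLS, 106 and 40 with PLASS and 127 and 45.6 with EV. HLF, a stem cell factor gene, fell by 1.13 ± 0.15 (adjusted p = 0.0107), at 46.1 and 28.4, 115 and 52.7, and 166 and 81.3 CPM. The repressor genes GFI1B and GFI1 moved in opposite directions, by 1.76 ± 0.24 and -1.15 ± 0.21. ZEB2, named after its values were seen, was the third that rose (1.01 ± 0.19). Against EV the blocked fit called 4 higher (RUNX1, GFI1B, ZEB2 and MECOM) and 3 lower (MYB, GFI1 and HLF), none of them called without the block, where RUNX1 and MYB were also named after their values were seen. Over all genes the shares called against EV with the block were 3.23% higher and 0.998% lower.

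Of 13 tested inhibitors and modulators of the factors, the blocked fit called CEBPA higher (1.45 ± 0.21) and IRF8 lower (-2.50 ± 0.42) with PLDLS against PLASS. Without the block none was called. Among all genes 1.52% were called higher and 0.513% lower in the blocked comparison. CEBPA encodes a myeloid factor that works with PU.1, and IRF8 a partner of PU.1 that was under 5 CPM in every library. HES1 was at 0.76 ± 0.24 and TLE1 at 0.46 ± 0.22 (edgeR adjusted p = 0.197 and 0.507), neither past the threshold. Against EV, 4 were higher (CEBPA, HES1, ID1 and ID2, the last pair named after their values were seen) and IRF8 was lower (-2.19 ± 0.42), all with the block and none without it. Beside these counts, 3.23% of all genes were called higher and 0.998% lower against EV with the block. ID2 encodes a dominant-negative partner of E proteins, and its values were 55.3 and 85.7 CPM with PLDLS, 62.6 and 86.6 with PLASS and 18.4 and 40.8 with EV, so that both peptide groups lay above EV. The same held for ID1, at 33.7 and 42.1, 37.3 and 43.4, and 14.5 and 28.3 CPM in that order. For HES1, PLASS vs EV was at 1.04 ± 0.24 with the block (edgeR adjusted p = 0.712).

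Of 16 tested erythroid, megakaryocyte and mast cell targets of GATA factors, 1 rose with PLDLS against PLASS in the blocked fit. The share of all tested genes that rose was 1.52%, and a count of 1 is too small to read against it. HDC, the histamine-forming enzyme gene of mast cells and basophils, was at 21.3 and 56.2 CPM with PLDLS, 8.89 and 17.3 with PLASS and 10.1 and 15.9 with EV, a log2 difference of 1.49 ± 0.21 (edgeR adjusted p = 0.0126, and 0.719 without the block). Both PLDLS libraries were above all 4 others. ITGA2B, the megakaryocyte integrin gene, was at 0.54 ± 0.19 and MS4A2, an IgE receptor subunit gene, at -1.23 ± 0.48, neither past the threshold. KIT, the stem cell factor receptor gene, was at -0.40 ± 0.14 against PLASS and fell against EV by 0.72 ± 0.14 (adjusted p = 0.0219, and 0.275 without the block).

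None of 20 tested myeloid targets of PU.1 was called in any comparison of constructs, with or without the block. The blocked fit called 2.03% of all genes against PLASS and 4.22% against EV. Beside these shares a count of 0 among 20 says nothing particular of the targets. BTK, a signalling kinase gene, was at 0.52 ± 0.12 (edgeR adjusted p = 0.0825) and MPEG1, a macrophage perforin gene, at -0.89 ± 0.19 (adjusted p = 0.0519) in PLDLS vs PLASS with the block. ITGAM, an integrin gene of myeloid cells, was at 0.77 ± 0.24 (adjusted p = 0.197). The median of the 20 was -0.05, beside -0.01 for all genes.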

How the data were processed

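RNA-seq of 6 MUTZ3 libraries in 3 groups was read from the deposited Salmon tables. The labels give poly-A RNA and the TruSeq RNA v2 kit, which does not mark strand, so sense and antisense reads cannot be told apart. The submitters' processing notes name bcl2fastq 1.8.4, Salmon 0.3.1 and hg38. Per the file headers, each RefSeq transcript has an estimated count of reads from Salmon, deposited by the authors without normalization. TPM values from the same deposited tables are per length and sum to 1000000 in each library, per the file headers, and were used for levels between genes. The deposited effective length of a transcript served as an offset in 1 alternative. The labels give no read layout or Salmon settings.

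Of 69004 transcripts, 99.4% were named with RefSeq (GRCh38.p14) and GENCODE 29, and those with no name held 0.067% to 0.0893% of the reads and were left out. Gene sums, rounded, entered edgeR 4.0.16's quasi-likelihood test (TMM, filterByExpr, a group term over 6 libraries, Benjamini-Hochberg adjusted p under 0.05). CPM is TMM-scaled. The chi-square per gene between the 2 replicates was 18.4 to 77.3, above sampling noise. Pairing by replicate number rests on the correlations given above and on the experiment number in the deposited table names, not on a label.

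All 8 factor genes are named, with MECOM, up to 4 genes of each list with the smallest blocked p in PLDLS vs PLASS, and the genes most like each factor gene in log2 CPM (5 for GATA2, 3 for each other). One list gene that this rule names is not reported here. The genes, lists and tests were chosen with earlier results of these data known. On simulated counts for PLDLS vs EV (14488 genes), edgeR found 2% of the genes changed 2-fold and 70% of those changed 4-fold when fitted without the block (0 false calls). With it, edgeR found 86% and 99% (20 false calls). For PLDLS vs PLASS (14484 genes) these shares were 2% and 53% (0 false calls), and 82% and 99% (12 false calls). The simulated counts took their replicate-number differences and their scatter from the fit that holds the block. The higher shares with the block were thus built in, and cannot show whether the block suits these libraries. Alternatives were DESeq2 1.42.0, limma-voom (limma 3.58.1), other scalings and filters, and leaving out each library.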

Additional observations from a re-analysis of the deposited data

Results flagged for a closer look

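GATA1 had opposite signs between the replicate numbers in all 3 comparisons of constructs. The log2 difference in CPM of PLDLS minus PLASS was -0.13 within replicate 1 and 0.47 within replicate 2. PLDLS minus EV was -0.70 and 0.71, and PLASS minus EV was -0.57 and 0.24. Between the numbers, replicate 2 minus replicate 1 was 1.05 in PLDLS, 0.44 in PLASS and -0.37 in EV. Each of these rests on 20 to 111 reads per library and on 1 library a side, and the difference between the signs was not tested.

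LMO2 in PLASS minus EV was -0.26 within replicate 1 and 0.16 within replicate 2, while PLDLS was lower than both groups within both numbers. LYL1 in replicate 2 minus replicate 1 was 0.14 in PLDLS, -0.63 in PLASS and -0.67 in EV, so the PLDLS group went the other way from the rest. These differences between groups were not tested either.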

How the results depend on the processing

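LMO2 and TAL1 kept their direction against PLASS and EV in all settings run, with and without the replicate block and without each library, while their calls depended on the block. Of the 8 factor genes, the blocked edgeR fit called 0 in PLDLS vs PLASS and 1 in PLDLS vs EV. With other settings beside the block, the count against PLASS was 2 with DESeq2, limma-voom, no filter and only the groups compared, and 1 with the effective-length offset. Against EV it was 2 with DESeq2 and with no filter, and 1 with limma-voom, DESeq2 size factors, upper-quartile scaling, only the groups compared, the effective-length offset and 1 CPM in 4 libraries, the last added after seeing the data. Leaving out each library gave 0 to 2 in both comparisons, and 1 to 5 for replicate 2 vs replicate 1.

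Over all genes, the block raised the calls from 0 to 297 in PLDLS vs PLASS, from 2 to 618 in PLDLS vs EV and from 0 to 2 in PLASS vs EV. Without the block, DESeq2 called 121, 267 and 3 genes and edgeR with no filter 241, 471 and 34. In PLDLS vs EV, limma-voom called 5 and only the groups compared 7, and the effective-length offset and upper-quartile scaling 0. With the block, in the same order of comparisons, DESeq2 called 381, 710 and 24 genes, limma-voom 328, 732 and 1, no filter 584, 1013 and 38, and only the groups compared 1098, 838 and 11. DESeq2 size factors gave 285, 601 and 2, upper-quartile scaling 283, 595 and 2, the effective-length offset 305, 670 and 2, and the stricter filter 263, 565 and 2. Leaving out each library gave 0 to 1077, 0 to 2157 and 0 to 571, all highest without EV replicate 1 in the blocked fit, and 890 to 3072 for replicate 2 vs replicate 1. Where this left a group with 1 library, it was assumed to vary like the others. The cause of these shifts was not tested.

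The differences given next, none of them called by the blocked edgeR fit, changed sign when 1 library was left out. The ranges between constructs pool fits with and without the block. The log2 difference of PLDLS vs PLASS ran from -0.77 to 0.23 for GATA2, -0.37 to 0.70 for GATA1, -0.16 to 0.57 for ERG and -0.29 to 0.50 for FLI1. PLDLS vs EV ran from -0.41 to 0.27 for GATA2, -0.57 to 0.51 for GATA1, -0.02 to 0.78 for LYL1, -0.48 to 0.13 for ERG, -0.53 to 0.24 for FLI1 and -0.23 to 0.08 for SPI1. PLASS vs EV ran from -0.36 to 0.66 for GATA2, -0.70 to 0.38 for GATA1, -0.26 to 0.03 for TAL1, -0.39 to 0.34 for LYL1, -0.30 to 0.19 for LMO2, -0.58 to 0.05 for FLI1 and -0.03 to 0.27 for SPI1, and LYL1 was at 0.01 with the effective-length offset. Replicate 2 vs replicate 1 ran from -0.01 to 0.71 for GATA1. Some changes of sign between constructs came only without the block. With it, PLDLS vs PLASS ran from -0.49 to -0.08 for GATA2, 0.11 to 0.29 for ERG and 0.02 to 0.25 for FLI1. PLDLS vs EV then ran from -0.31 to -0.02 for ERG, -0.23 to -0.01 for FLI1 and -0.13 to -0.05 for SPI1. PLASS vs EV ran from -0.34 to -0.17 for FLI1 and 0.10 to 0.14 for SPI1. The other differences listed changed sign with the block. With 2 libraries a group and 5582078 reads in PLDLS replicate 2, GATA1 is the factor gene that depth limits most.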

Other observations

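On the TPM scale, SPI1 stood at 0.711 and 0.997 times the level of TAL1 in the PLDLS libraries, 1.3 and 1.82 times in PLASS and 1.14 and 1.49 times in EV, so SPI1 exceeded TAL1 in the 4 PLASS and EV libraries, was about equal to it in PLDLS replicate 2 and lay below it in PLDLS replicate 1. This ratio was chosen after the values were seen and was not tested. LYL1 stood at 0.548 to 0.864 times the level of TAL1, and SPI1 at 32.7 to 59.7 times the level of GATA1, with overlap between the construct groups in both ratios.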
